A study of Sus scrofa with 16 samples.

Results

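The microRNA ssc-miR-21 was followed through the ovaries of 16 sows. It is 1 row among the 216 known and 1724 predicted miRNAs (1940 entries in all) of a table of small RNA read counts, and it was chosen by its known role in the survival of luteal and granulosa cells and by its large share of the counts in these libraries. Since the measured share was a reason for the choice, its level is given as a description, and tests are given only for differences between groups. Ovaries came from Canadian Large White pigs, labelled as of high or low fecundity, with a separate library for every animal. Luteal ovaries were collected on day 14, counted from the first day of estrus, and are called LH where fecundity was high and LL where it was low. Follicular ovaries were collected on day 20 and are called FH (high) and FL (low). Each group held 4 sows, and no sow was sampled in both phases. Parity was higher in the high fecundity sows than in the low fecundity sows, so fecundity and parity cannot be told apart by group alone.

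MicroRNAs are short RNAs that pair through their seed, the bases near the 5′ end, with sites in messenger RNAs and lower the output of these messengers. miR-21 is an abundant miRNA of many tissues, known for repressing the tumour suppressor PDCD4 and for favouring cell survival. In the ovary it is known to be induced in granulosa cells by luteinizing hormone around ovulation, when granulosa and theca cells turn into the luteal cells of the corpus luteum, the gland that makes progesterone.

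The sequence of ssc-miR-21 itself is not printed, since it was in none of the tables used here. Among the predicted miRNAs, NovelmiRNA-231 and NovelmiRNA-1230 hold the seed of miR-21 at bases 2 to 8 of the mature strand, and they are shown because a reader can see that seed in them. The other predicted miRNAs shown are NovelmiRNA-1444 and NovelmiRNA-1304, the ones whose levels over the 16 ovaries ran most with and most against ssc-miR-21. All were picked out after their values were seen. The sequences are those the study lists for its predicted miRNAs, written 5′ to 3′ with bases 2 to 8 in capitals, and the positions are on Sscrofa10.2.
NovelmiRNA-231 (scaffold JH118993.1, 108545 to 108622, minus strand) and NovelmiRNA-1230 (chromosome 6, 85651529 to 85651606, minus strand): gAGCUUAUcagacuggugu
NovelmiRNA-1444 (scaffold GL894231.1, 15870 to 15927, minus strand): cCCAAUACacggucgaucucu
NovelmiRNA-1304 (chromosome 16, 6629174 to 6629257, minus strand): uGAGGUAGuaggcugugugg
The capitals of NovelmiRNA-1304 are, as background, the seed of the let-7 miRNAs.

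Library totals ran from 8998496 to 37194836 counts, and ssc-miR-21 had between 283313 and 5267851 counts in a library. Counting error was therefore small: the 95% Wilson interval of its share of a library's counts was at most 0.024 percentage points to either side. That interval covers counting error only and takes reads as independent. PCR copies of a molecule were not marked, so it can be too narrow. The spread between sows was far larger and set the precision of every comparison. Many entries (935 of 1940) were duplicates of another entry by their counts in every library. The gonadal miRNA ssc-miR-202-5p, fixed as the marker of the labelled tissue, was counted in every library, from 64.48 to 3843 CPM (counts scaled to a common library size after normalization by TMM, a factor for each library).

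Some libraries stood apart from their labelled phase. Each library was compared with the mean of the other luteal and of the other follicular libraries, over the known miRNAs of at least 100 CPM and without ssc-miR-21. All 8 luteal libraries correlated better with the luteal mean, among them LH2 (Pearson r 0.934 against 0.912) and LH4 (0.874 against 0.873). Of the 8 follicular libraries, 6 correlated better with the follicular mean. The exceptions were the library labelled FH1 (r 0.943 with the luteal and 0.905 with the follicular mean) and the library labelled FL4 (0.833 and 0.817). LH2 kept a luteal profile by this measure and is singled out below for its level of ssc-miR-21 alone. The phase differences of ssc-miR-21 are also given without FH1 or FL4, whereas the values of single other miRNAs are given with all libraries.

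ssc-miR-21 took a large share of the counts of luteal ovaries and a small share of those of follicular ovaries. In LL it took 29.9% of the counts of the first sow, 30.3% of the second, 24.7% of the third and 20.1% of the fourth. In LH the shares were 18.1%, 2.76%, 26.2% and 9.87%. In FH they were 8.66%, 2.25%, 4.16% and 2.36%, and in FL 2.71%, 3.15%, 2.83% and 5.44%. The 4 LL shares lay above every follicular share, whereas the LH shares spanned nearly the whole range of the 16 ovaries. The mean share was 26.2 ± 4.83% in LL, 14.2 ± 10.15% in LH, 4.36 ± 2.998% in FH and 3.53 ± 1.29% in FL (SD, n = 4 each). Over all 16 libraries ssc-miR-21 made up 11.6% of the counts. The totals behind these shares count every entry, also those with identical counts. With identical entries counted once, the mean share was 29.4% in LL, 16.4% in LH, 5.45% in FH and 4.29% in FL.

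Among the known miRNAs with distinct counts, ssc-miR-21 had the highest count in 6 libraries, namely LH1, LH3 and all 4 of LL. It was at rank 2 in LH4, at rank 3 in FH1 and FL4, and between rank 6 and rank 9 in the remaining 7 libraries, LH2 among them at rank 8. By mean share over the libraries it came (12.1%) after ssc-miR-143-3p (15.4%), a miRNA of smooth muscle, whose entry has the same counts as that of ssc-miR-143-5p. ssc-miR-143-3p took 10.7 ± 1.43% of the counts in LL, 13.2 ± 3.26% in LH, 20.3 ± 4.43% in FH and 17.35 ± 2.03% in FL (SD, n = 4 each). ssc-miR-21 held more counts than it in all 4 LL libraries and in LH1 and LH3, and fewer in LH2, LH4 and all 8 follicular libraries.

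On the scale of TMM-normalized CPM, ssc-miR-21 stood at 169200, 29900, 308400 and 108100 in the 4 LH ovaries. In LL it stood at 171700, 221400, 163200 and 170000. In FH the levels were 92080, 33630, 51060 and 31920, and in FL 36560, 27610, 37040 and 44430. The highest library (LH3) was 11.2-fold above the lowest (FL2), and LH2 was the only luteal library at a follicular level. The group means were 181600 ± 26790 CPM in LL, 153900 ± 117700 in LH, 52170 ± 27980 in FH and 36410 ± 6882 in FL (SD, n = 4 each). In this order of levels no neighbouring groups differed beyond their spread (exact two-sided permutation tests of log2(CPM + 1), 70 splits: LL and LH p = 0.457, LH and FH p = 0.171, FH and FL p = 0.371). In a piece of whole ovary, a change in the number of cells that hold a miRNA and a change in its amount per cell cannot be told apart.

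**Figure D1:**
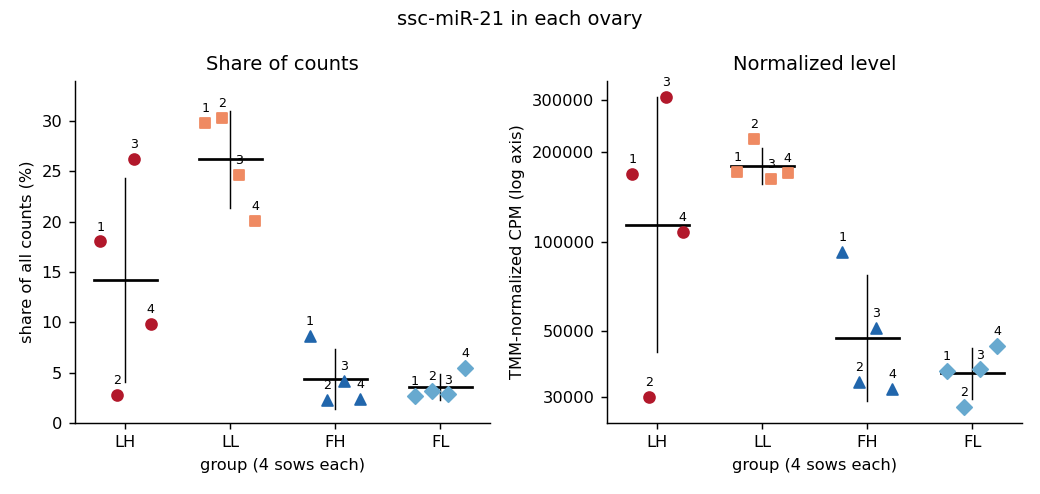
ssc-miR-21 in each of the 16 ovaries, as the share of all counts in percent (left) and as TMM-normalized CPM on a log axis (right), by group. Points are sows numbered within the group, horizontal lines are the group mean (on the right the mean of the log values) and vertical lines ± 1 SD (n = 4). The LL points lie above every follicular point, and LH2 lies among the follicular points.

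The widest separation was between the phases of the low fecundity sows. The mean level in LL was 4.99-fold that in FL, and the lowest LL ovary was still 3.67-fold above the highest FL ovary. In the LL vs. FL comparison ssc-miR-21 rose by 2.41 on the log2 scale (SE 0.22; edgeR quasi-likelihood test, adjusted p = 0.00174 over 339 entries), and it had the smallest P of them in this fit. The background of this comparison was large: 29.8% of the entries tested passed the study's threshold (P below 0.05 before adjustment, with a change of 1 or more on the log2 scale in either direction), 15.6% upwards and 14.2% downwards, and 17.7% had an adjusted p below 0.05, 9.73% upwards and 7.96% downwards. The exact permutation test, which for 4 against 4 sows cannot go below 0.0286, reached that limit (difference 2.33 on log2(CPM + 1), p = 0.0286, 0.114 adjusted over the 4 pairs of groups). The groups of 33.3% of the entries did not overlap in this comparison, with LL above in 19.8% and below in 13.6%. With 1 library left out at a time the fold change stayed between 2.16 and 2.43 with an adjusted p of at most 0.014, and without FL4 it was 2.32. The rank by P depended on the fit, and was 5 without FL4. With all 16 libraries in 1 edgeR fit the rank was 24 of 445 entries (change of 2.32, SE 0.53, adjusted p = 0.0119).

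In the high fecundity sows the difference between phases had the same direction and was less certain. The mean level in LH was 2.95-fold that in FH, but the groups overlapped, since LH2 lay below all 4 FH ovaries and FH1 lay close to LH4. In the LH vs. FH comparison the log2 fold change was 1.61 (SE 0.68; edgeR, adjusted p = 0.308 over 323 entries). This passed the study's threshold, as did 12.4% of the entries (9.6% upwards and 2.79% downwards), and did not pass the adjusted one, which 0.929% passed. The exact permutation test gave p = 0.171 for a difference of 1.27 (0.343 adjusted over the 4 pairs). The call rested on single sows. It was lost when LH1 (1.52), LH3 (0.81), LH4 (1.69), FH2 (1.44), FH3 (1.64) or FH4 (1.40) was left out, and with RLE factors, with parity or clean read share as a covariate or with the replicate number as a block. Of the fits with 1 sow left out, it was kept only without LH2 (1.96) or FH1 (2.01), the sows whose values lie closest to the other group.

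With both fecundity classes in a single model of 16 libraries, ssc-miR-21 was higher in the luteal phase by 1.94 on the log2 scale (SE 0.38; edgeR, adjusted p = 0.00502 over 445 entries). In this model 19.8% of the entries passed the study's threshold (12.1% upwards and 7.64% downwards) and 15.1% the adjusted one (8.54% upwards and 6.52% downwards). The exact permutation test within fecundity classes, over 4900 splits, gave a difference of 1.80 (p = 0.00245). By the same exact test the difference was 1.96 without FH1 (p = 0.00245) and 1.85 without FL4 (p = 0.00408). Both were singled out without using ssc-miR-21. Each still has the highest level of its group, so leaving it out must enlarge this difference. Without LH2 it was 2.12, which must be larger because LH2 has the lowest luteal value, so this is given as a description with no test. In edgeR the log2 fold change was 2.12 without FH1 (adjusted p = 0.00373) and 1.92 without FL4 (adjusted p = 0.0075).

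Between the fecundity classes no difference in ssc-miR-21 passed a test with all libraries in place. In the luteal phase the log2 fold change of LL over LH was 0.30 (SE 0.56; edgeR, adjusted p = 0.827 over 362 entries), where 13% of the entries passed the study's threshold and 0.829% the adjusted one. LH2 decided its sign, as it was -0.08 without that library. In the follicular phase the log2 fold change of FL over FH was -0.57 (SE 0.39; edgeR, adjusted p = 0.704 over 307 entries), where 6.19% of the entries passed the study's threshold and 0.651% the adjusted one. Without FH1, the highest follicular ovary, this shrank to -0.17 (SE 0.31). The luteal fecundity contrast exceeded the follicular one by 0.76 (SE 0.72; edgeR interaction term, adjusted p = 0.696), where 13.3% of the entries passed the study's threshold and 0% the adjusted one. With 1 sow left out it ran from 0.39 (without FH1) to 1.32 (without LH3, SE 0.63), and it was 0.44 without LH2, and did not pass the study's threshold in any of these fits. With an SE of 0.56, a luteal fecundity difference of 1 on the log2 scale would lie within 2 SE of none.

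**Figure D2:**
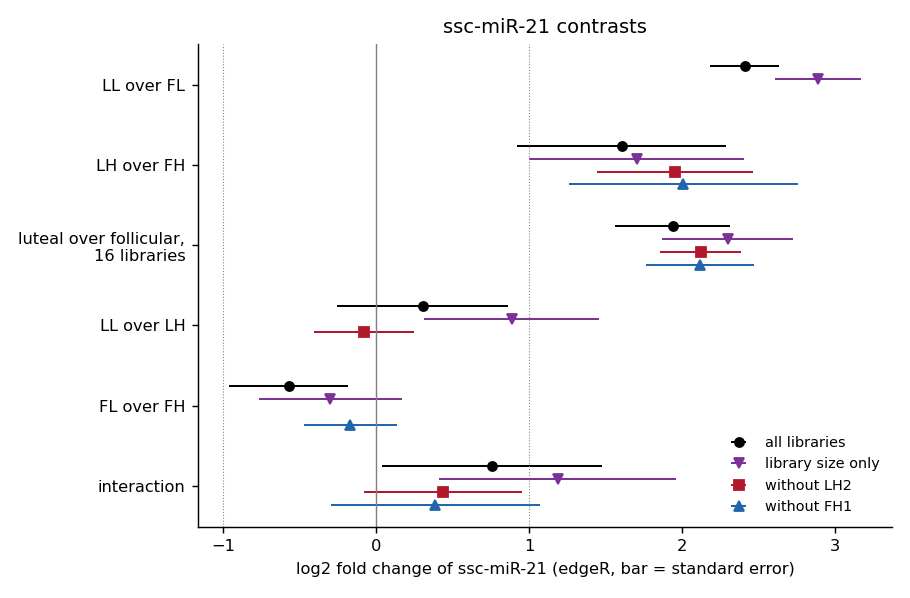
log2 fold changes of ssc-miR-21 (horizontal axis) in 6 contrasts, from edgeR, with bars of 1 SE and dotted lines at -1 and 1. Black circles are all libraries of the contrast, triangles pointing down use library size alone, squares leave out LH2 and triangles pointing up leave out FH1. The contrasts between phases lie between 1.61 and 2.89, whereas the fecundity contrasts and the interaction lie within 2 SE of 0 in every setting drawn, up to 0.89 for LL over LH and 1.19 for the interaction with library size alone.

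The fold changes depend on how the libraries are scaled. With TMM the median log2 fold change of all entries was 0.22 in LL vs. FL and 0.15 in LH vs. LL, and with library size alone 0.61 and 0.73. ssc-miR-21 moved with that shift: library size alone gave 2.89 for LL vs. FL and 0.89 for LH vs. LL, which did not pass the study's threshold. A ratio within a library needs no such scaling, so its counts were also divided by the summed counts of the 6 let-7 entries, a family of miRNAs known for holding back growth and keeping cells differentiated. The ratio was 3.72, 2.60, 2.71 and 2.35 in the LL ovaries and 1.70, 0.251, 3.12 and 1.27 in the LH ovaries. It was 1.22, 0.395, 0.530 and 0.289 in FH, and 0.314, 0.334, 0.398 and 0.598 in FL. Every LL ovary held more ssc-miR-21 than let-7 counts and every FL ovary fewer. The log2 ratio differed by 2.82 between LL and FL (exact permutation p = 0.0286, the smallest the design can give), by 1.13 between LH and FH (p = 0.286), by 1.30 between LL and LH (p = 0.114) and by -0.39 between FL and FH (p = 0.571). With the sum of all other known miRNAs in place of let-7 the LL to FL difference was 3.26 by the same exact permutation test (p = 0.0286), the LL to LH difference 1.48 (p = 0.0857) and the LH to FH difference 1.58 (p = 0.114). The references are not fixed, so these ratios do not measure ssc-miR-21 alone. In LL vs. FL ssc-let-7c changed by -1.62 (edgeR, adjusted p = 0.0121), ssc-let-7i by -0.22 and ssc-let-7g by 0.15. Among the other known miRNAs, ssc-miR-143-3p changed by -1.29 (adjusted p = 0.0302).

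The sows of a group differed in ssc-miR-21 to unequal degrees. The SD of its log2 level was 1.43 in LH and 0.71 in FH, against a median of 0.53 and 0.38 over the 112 known miRNAs of at least 100 CPM, and it ranked 9 and 14 from the most variable of them. In the low fecundity groups its SD was 0.20 in LL and 0.28 in FL, below the medians of 0.43 and 0.58, and it ranked 98 in both. The wide groups are those that hold LH2 and FH1. Whether the spreads differ between groups was not tested.

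The predicted entries NovelmiRNA-231 and NovelmiRNA-1230, whose shared sequence is printed above, had the same counts in all 16 libraries and are described once. They were rare, with at most 281 counts in a library. In the LL ovaries they stood at 9.49, 9.39, 7.70 and 8.64 CPM, and in LH at 6.65, 1.54, 0 and 4.85. In FH they stood at 0, 3.61, 5.99 and 3.52 CPM, and in FL at 0, 0, 4.65 and 3.33. The 4 LL ovaries held more of them than any other library. They were at 0 in 4 libraries, which allows up to 3 counts. LH3 was one of these, although it held the highest level of ssc-miR-21 (5267851 counts). Where the entries were counted, their counts were few beside those of ssc-miR-21. Among those libraries the ratio was lowest in LH1 (106 beside 2698810) and highest in FL3 (49 beside 390035). Whether the counts of these entries came from variant or misread copies of ssc-miR-21 was not tested. The LL vs. FL change was 2.37 on the log2 scale (SE 1.54; edgeR, adjusted p = 0.335) and passed neither the study's threshold nor the adjusted one. LL lay wholly above FL, as it did in 19.8% of all entries, and FL included zeros.

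The known miRNAs whose levels ran closest to ssc-miR-21 over the 16 ovaries were found by Pearson r of log2(CPM + 1) among 111 others of at least 100 CPM. The highest were ssc-miR-148b-5p (r 0.939, Spearman 0.871), ssc-miR-103 (0.894), ssc-miR-340 (0.889), ssc-miR-182 (0.882) and ssc-miR-32 (0.871). These values describe the 16 libraries, which differ in phase and share the same scaling factors, and miRNAs picked this way differ between phases by selection. Only 1 of the 111 had an r above 0.9. The median r was -0.15, with 48 positive and 63 negative. With library size alone the same 5 were highest. After centring each group on its own mean the highest were ssc-miR-148b-5p (0.846), ssc-miR-146b (0.843), a miRNA induced in inflammation, and ssc-miR-107 (0.832). ssc-miR-103 and ssc-miR-107 are near-identical in sequence, so reads could be split between them and their levels are uncertain.

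ssc-miR-148b-5p stood at 2187, 1096, 3003 and 1666 CPM in LH and at 1733, 3316, 1838 and 2063 in LL. In FH it stood at 1354, 808.9, 1084 and 969.6 CPM, and in FL at 964.5, 514.3, 744.3 and 936.7. As for ssc-miR-21, LH2 was lowest of LH and FH1 highest of FH, and this was true of all 5 miRNAs most like it. These 5 were picked by r over the same libraries, which favours shared extremes, so this is not separate evidence on LH2 or FH1. The order of the sows within LL and FL differed from that of ssc-miR-21, with LL1 lowest of LL and FL1 highest of FL. Over the 8 luteal libraries its r was 0.884, over the 8 follicular ones 0.810, and over all but LH2 0.957. ssc-miR-182, a miRNA of epithelia, was close to ssc-miR-21 in the luteal libraries (r 0.908) and less so in the follicular ones (0.472), where FL4 was highest with 292.0 CPM against 30.58 to 139.9 in the other 7.

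The known miRNAs that ran most against ssc-miR-21 were ssc-let-7c (r -0.921), ssc-miR-181a (-0.893) and ssc-miR-193a-5p (-0.851). ssc-let-7c stood at 15710, 32230, 15510 and 18340 CPM in LH, and at 10340, 7755, 12720 and 13780 in LL. In FH it stood at 22020, 28970, 27890 and 38270 CPM, and in FL at 37100, 44390, 38470 and 27190. LH2 was again at a follicular level and FH1 was the lowest of the follicular ovaries, which the choice by lowest r favours. The order held within the luteal (r -0.786) and the follicular libraries (-0.863), and with library size alone r was -0.762. For ssc-miR-181a and ssc-miR-193a-5p it weakened with library size alone, to -0.394 and -0.407.

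**Figure D3:**
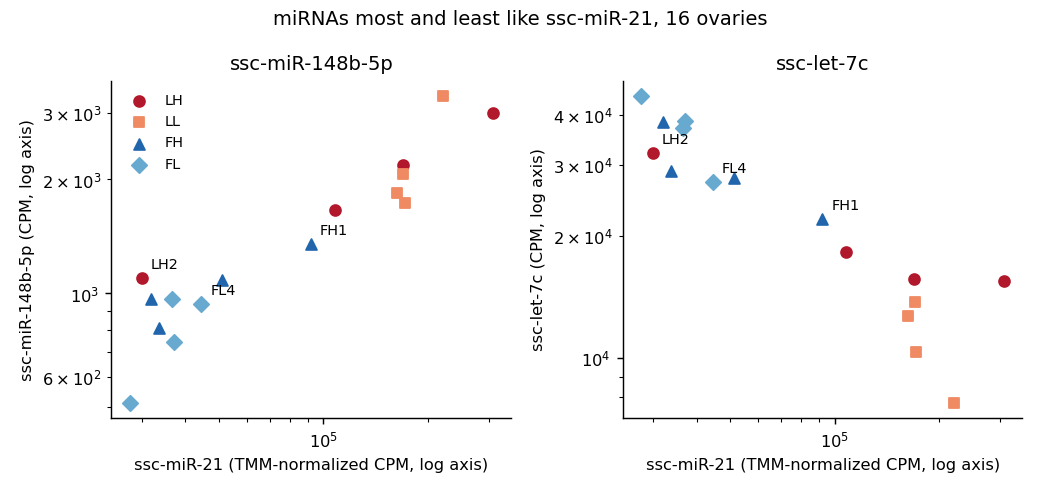
Level of ssc-miR-148b-5p (left) and of ssc-let-7c (right) against that of ssc-miR-21 in the 16 ovaries, in TMM-normalized CPM on log axes, with 1 point for each sow and a symbol for each group. LH2 lies with the follicular libraries in both panels, and FH1 lies between the follicular and the luteal ones. Both miRNAs were picked by their r with ssc-miR-21 over these same libraries. The r of 0.939 and -0.921 are those over all 16 points.

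Of the 26 predicted miRNAs counted in every library, NovelmiRNA-1444 ran most with ssc-miR-21 (r 0.891, and 0.782 after centring). It had only 11 to 256 counts in a library, that is 9.78, 2.98, 10.01 and 4.49 CPM in LH, 5.47, 12.3, 5.18 and 8.81 in LL, and 1.24 to 4.07 in the 8 follicular libraries. NovelmiRNA-1304, which holds the let-7 seed, ran most against it (r -0.888, and -0.657 after centring). It stood at 220.7, 691.7, 207.9 and 428.7 CPM in LH and at 188.0, 475.3, 193.4 and 200.5 in LL. In FH it stood at 758.9, 1160, 898.8 and 1470 CPM, and in FL at 1074, 1789, 2013 and 747.7. LH2 had the highest luteal level of this entry, as of ssc-let-7c. Both were picked for running against ssc-miR-21, so this is not separate evidence on LH2.

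A list of 18 other miRNAs with described roles in granulosa or luteal cells was set beside ssc-miR-21. It was chosen with earlier results of these data known and is not independent evidence of a direction. In LL vs. FL, 17 of its members were tested, of which 4 passed the study's threshold upwards and 7 downwards, against 15.6% and 14.2% of all entries. By adjusted p (edgeR), 3 were higher and 6 lower, against 9.73% and 7.96% of all entries. Their median log2 fold change was -0.75, against 0.22 over all entries tested, and with library size alone it was -0.17 against 0.61, with 4 higher and 4 lower by the study's threshold.

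The members that rose with it in LL vs. FL were ssc-miR-202-5p, of the gonads, by 2.73 (SE 0.71, adjusted p = 0.034), ssc-miR-224, a regulator of granulosa cell growth and estradiol release, by 2.18 (SE 0.60, adjusted p = 0.0425), and ssc-miR-132, which luteinizing hormone induces in granulosa cells, by 1.70 (SE 0.34, adjusted p = 0.0128; edgeR throughout). ssc-miR-212, made from the same primary transcript as ssc-miR-132, changed by 2.07 and passed the study's threshold alone (adjusted p = 0.0538). ssc-miR-202-5p stood at 1328, 3843, 1478 and 2162 CPM in LL and at 596.1, 302.3, 328.5 and 64.48 in FL. ssc-miR-132 stood at 182.1, 321.7, 179.7 and 198.2 CPM in LL and at 64.46, 54.67, 109.8 and 60.52 in FL. The groups did not overlap for either, and LL lay wholly above FL in 19.8% of all entries. ssc-miR-224 was a rare miRNA, with 8.19 to 29.6 CPM in LL and 1.80 to 4.86 in FL.

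In the high fecundity sows ssc-miR-132 stood at 176.3, 37.20, 116.3 and 72.62 CPM in LH and at 257.0, 35.89, 37.94 and 38.39 in FH. FH1 alone lay above the highest luteal value of LH, and the other FH ovaries lay near or below LH2. ssc-miR-212 had the same shape, with 80.40 CPM in FH1 and 6.66 to 12.7 in the rest of FH. Thus FH1, the follicular ovary with the most ssc-miR-21, also had the most of both among the follicular ovaries.

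The members that fell in LL vs. FL by adjusted p included ssc-miR-10a-5p, with a log2 fold change of -3.73 (SE 0.56; edgeR, adjusted p = 0.00682), and ssc-miR-34c, with -7.42 (SE 1.87, adjusted p = 0.0304). ssc-miR-145-5p, a miRNA of smooth muscle, fell by 2.35 (SE 0.40, adjusted p = 0.0101). The log2 fold change was -1.15 for ssc-miR-181a, -1.09 for ssc-miR-378 and -0.94 for ssc-miR-23a, the last of which is under the fold change of the study's threshold. ssc-miR-122 and ssc-miR-125b passed the study's threshold alone, downwards (adjusted p = 0.0519 and 0.136). The very large change of ssc-miR-34c came from 2 of the 4 FL ovaries, which held 7335 and 15220 CPM against 55.72 and 85.08 in the other 2. Without FL4, 4 members were higher and 9 lower.

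In LH vs. FH 1 of 17 members passed the study's threshold upwards, ssc-miR-34c (LH4 alone held 21380 CPM), and 1 downwards, ssc-miR-145-5p, against 9.6% and 2.79% of all entries. None passed the adjusted threshold by edgeR or DESeq2. In the model of both phases 2 of 18 passed upwards (ssc-miR-202-5p and ssc-miR-224) and 2 downwards (ssc-miR-145-5p and ssc-miR-10a-5p), near the 12.1% and 7.64% of all entries. By adjusted p from edgeR, ssc-miR-202-5p rose by 2.02 (adjusted p = 0.0167), and ssc-miR-145-5p (adjusted p = 0.00389), ssc-miR-23a, ssc-miR-378 and ssc-miR-181a fell. The median was -0.75, against 0.17 over all entries. Without FH1 the number past the study's threshold grew from 4 to 9, with 4 higher and 5 lower, and without LH2 it grew to 7, with 3 higher and 4 lower.

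Between the fecundity classes few members passed the study's threshold. In LH vs. LL 1 of 17 was higher in LL, ssc-miR-132 by 1.17 (edgeR, adjusted p = 0.256), and 2 were lower, ssc-miR-34c and ssc-miR-10a-5p, against 6.63% of all entries upwards and 6.35% downwards. LH4 held most of both, with 21380 CPM of ssc-miR-34c and 7978 of ssc-miR-10a-5p. The other LH ovaries held at most 114.6 and 1555 CPM. In FH vs. FL 2 of 18 were higher in FL, ssc-miR-34c and ssc-miR-122, against 5.54% upwards and 0.651% downwards. ssc-miR-34c stood at 7335 CPM in FL2 and 15220 in FL4, against 55.72 and 85.08 in FL1 and FL3. ssc-miR-122 stood at 1363 CPM in FL2, against 30.11 to 276.9 in the rest of FL. In the interaction 4 of 18 passed downwards, ssc-miR-34c, ssc-miR-122, ssc-miR-10a-5p and ssc-miR-145-5p, and none upwards, against 9.21% and 4.04% of all entries. No member passed the adjusted threshold of edgeR in these 3 contrasts, whereas DESeq2 put 1 member past it in LH vs. LL, 2 in FH vs. FL and 3 in the interaction.

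**Figure D4:**
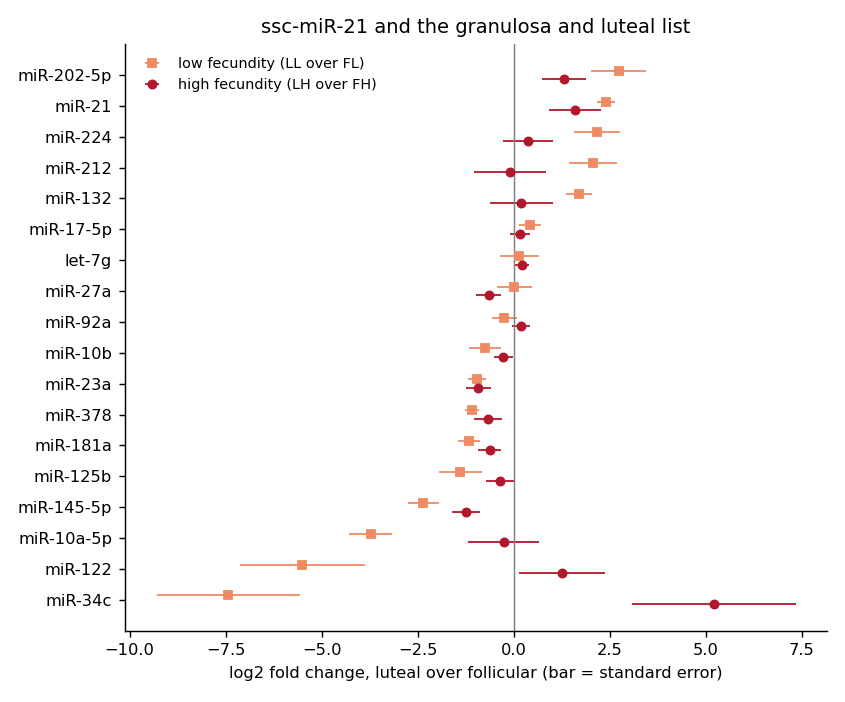
log2 fold changes of luteal over follicular libraries with bars of 1 SE (edgeR), for ssc-miR-21 and the members of the granulosa and luteal list that were tested, in the low fecundity sows (squares) and the high fecundity sows (circles). ssc-miR-21 lies right of 0 in both comparisons, at 2.41 and 1.61, and most of the list lies left of 0 in the low fecundity sows.

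A list of 5 miRNAs of inflammation and leukocytes was read in the same way. In LL vs. FL no member passed the study's threshold upwards, as 15.6% of all entries did, though 2 did with library size alone, and 1 was lower, the lymphocyte miRNA ssc-miR-150, with a log2 fold change of -2.003 (SE 0.44; edgeR, adjusted p = 0.0187). It stood at 22.40, 24.70, 31.45 and 45.20 CPM in LL and at 58.54, 142.6, 120.6 and 233.7 in FL, without overlap. LL lay wholly below FL in 13.6% of all entries. In the model of both phases ssc-miR-150 was again the only member past the study's threshold (change of -1.23, adjusted p = 0.0912). In LH vs. FH the leukocyte miRNA ssc-miR-142-5p was lower, but it was listed at 0 in all 4 LH libraries and also in LL2 and FL1, where other libraries held 148.7 to 513.0 CPM, so a fold change is not given. No member passed in LH vs. LL or FH vs. FL. In the interaction 1 was higher by the study's threshold, ssc-miR-142-5p with its zeros, and 1 lower, ssc-miR-150. None passed the adjusted threshold of edgeR there and 1, upwards, passed that of DESeq2.

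Markers of some other cell types differed between LL and FL as well. The summed level of the 2 smooth muscle miRNAs ran from 71950 to 91140 CPM in LL, from 111500 to 212800 in LH, from 170400 to 311000 in FL and from 232300 to 444600 in FH. The endothelial ssc-miR-126-5p ran from 15240 to 26360 CPM in LL and from 2461 to 11050 in FL, with LH at 7751 to 22210 and FH at 8134 to 11870. Its log2 fold change was 1.55 in LL vs. FL (edgeR, adjusted p = 0.0712) and 0.28 in LH vs. FH (adjusted p = 0.751). The 3 leukocyte miRNAs summed to 313.3 to 504.8 CPM in LL and 263.5 to 890.6 in FL, with LH at 185.4 to 465.1 and FH at 381.5 to 510.8. In every LH library, LL2 and FL1 this sum holds ssc-miR-142-5p at 0, so the ranges of LH, LL and FL are uncertain. The 4 of striated muscle summed to 309.5 to 829.5 CPM in LL, 528.6 to 2986 in FL, 2097 to 3128 in LH and 1796 to 4193 in FH. The 5 of ciliated or tubal epithelium summed to 382.6 to 1016 CPM in LL, 157.2 to 16080 in FL, 145.5 to 21830 in LH and 276.9 to 300.4 in FH. They did not move together in LL vs. FL. ssc-miR-182 changed by 2.11 and ssc-miR-183 by 2.63, but ssc-miR-34c by -7.42, ssc-miR-429 by -3.955 and ssc-miR-205 by -2.36 (log2, edgeR). The largest sums were mostly ssc-miR-34c, with 21380 CPM in LH4, 7335 in FL2 and 15220 in FL4. The 2 of erythrocytes summed to 32.15 to 185.7 CPM over all libraries, and ssc-miR-122 of the liver ran from 1.76 to 1363 CPM. Smooth muscle markers were thus lower, and the endothelial one higher, in LL than in FL without overlap, as ssc-miR-21 was higher. Groups without overlap were common in this comparison, with LL below in 13.6% of all entries and above in 19.8%. Their part in the differences of ssc-miR-21 was not tested.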

How the data were processed

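Small RNA libraries from the ovaries of 16 sows (4 per group, 1 library per sow) were analysed. The authors trimmed reads with Trimmomatic, mapped them to Sscrofa10.2 with Bowtie2 2.1.0 (version as in the submitters' processing notes, which also name DESeq2) and predicted further miRNAs with miRDeep. They deposited raw counts per miRNA without normalization, and the method that assigned reads to miRNAs is not given in the sources used here.

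Tests used the quasi-likelihood fit of edgeR 4.0.16 (R 4.3.3) after TMM normalization and edgeR's expression filter (minimum count 10, minimum total 15), on the 8 libraries of each pair of groups, and on all 16 for phase and interaction. Every fold change puts low fecundity over high, or luteal over follicular. P-values were adjusted over all entries tested (Benjamini-Hochberg). Levels use the TMM factors of all 16 libraries and exact permutation tests a pseudocount of 1 CPM. The upper limit for an entry at 0 is 3 counts (0.101 to 0.339 CPM). The edgeR fit was tested on simulated data. Alternatives covered normalization (library size alone, RLE, known miRNAs alone), DESeq2 1.42.0, filters, collapsed entries, covariates, a replicate block and each sow left out. Leaving ssc-miR-21 out of the TMM factors, and lists without LH2, FH1 or FL4, were chosen after seeing the data.

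Named miRNAs are ssc-miR-21, the 10 known miRNAs of largest mean share, the 5 most and 3 least like it, the 3 most like it after centring, members of the lists and cell type markers, and predicted entries with its seed. The seed entries were recognized by name in the study's table of predicted sequences, since no table used here held the mature sequence of ssc-miR-21. The miRNA, the lists and the markers were chosen with earlier results of these data known. Replicate numbers belong to different sows. Messenger and long noncoding RNA were not analysed here.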

Additional observations from a re-analysis of the deposited data

Results flagged for a closer look

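In 204 groups of 4 ovaries, 17 held a highest or lowest value whose gap to the next was above Dixon's 95% critical share of the group's range, where chance alone gives about 1 in 20 groups. For ssc-miR-21 these were the log2 level of LL2 (17.8, above the rest of LL) and the share of FL4 (5.44% of counts, above the rest of FL). LH2 did not stand apart by this measure for ssc-miR-21, since the 4 LH values were spread over a wide range.

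Among the other named miRNAs, LL2 stood apart for ssc-miR-132 (321.7 CPM, highest), ssc-miR-181a (981.3 CPM, lowest) and ssc-miR-142-5p (listed at 0). FH1 was highest for ssc-miR-132 (257.0 CPM), as it was for ssc-miR-21. FH2 stood apart for ssc-miR-143-3p (395600 CPM) and ssc-miR-17-5p (297.6 CPM). FL4 stood apart for ssc-miR-383 (5.88 CPM), FL1 for ssc-miR-142-5p (listed at 0) and FL3 for ssc-miR-133a-5p (537.9 CPM). LL1 stood apart for ssc-miR-378 (847.3 CPM) and ssc-miR-122 (28.1 CPM), and LL4 for ssc-miR-429 (18.7 CPM). LH4 stood apart for ssc-miR-34c (21380 CPM) and ssc-miR-133b (39.2 CPM), and LH2 for ssc-miR-92a (3516 CPM).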

How the results depend on the processing

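For ssc-miR-21, LL vs. FL (fold changes 2.16 to 2.89 on the log2 scale, 21 alternatives) and luteal vs. follicular phase (1.70 to 2.30, 28 alternatives) passed the study's threshold under every alternative run. FH vs. FL (-0.77 to -0.17) and the interaction (0.39 to 1.32) passed it under none. LH vs. FH lost its call with RLE factors (1.5), parity (1.58) or clean read share (1.35) as a covariate, and when LH1, LH3, LH4, FH2, FH3 or FH4 was left out (0.81 to 2.01 over all sows). LH vs. LL turned negative with parity as a covariate (-0.34) and without LH2 (-0.0798), and was 0.793 without LH3. With 1 sow left out, the difference in log2 let-7 ratio ran from -0.673 to 0.018 in FH vs. FL, positive without FH1. In LH vs. LL it ran from 0.569 to 1.78, largest without LH3 (exact permutation p = 0.0286). LH3 has the highest ratio of LH, so leaving it out must enlarge this difference, and that p is not separate evidence. The cause of these changes was not tested.

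Samples with the same replicate number did not deviate together in all pairs, and they are different sows. A replicate block gave 1.32 for LH vs. FH (no longer called) and 2.43 for LL vs. FL, which kept the study's call but not the adjusted one (edgeR adjusted p = 0.0639).

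Of the granulosa and luteal list, library size alone called 5 in LH vs. LL (3 by TMM), and for the phases DESeq2 called 7, the fit without LH2 7 and without FH1 9 (4 by TMM). Of the inflammation list, LH vs. LL had 1 call by DESeq2, library size alone or without LH2 (0 by TMM), LL vs. FL had 3 by library size alone, 2 higher and 1 lower (1), the phases 2 by DESeq2 and 0 by library size alone (1), and the interaction 1 by library size alone, without FH1 or without FL4 (2). Depth did not limit ssc-miR-21. The 4 sows per group did.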
